A study of Mus musculus with 9 samples.

Results

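The genes described here encode the carriers that move amino acids, small peptides and related molecules across cell membranes. They were chosen by symbol: every gene with its own probeset on the array whose name begins with Slc1a, Slc3a, Slc6a, Slc7a, Slc15a, Slc36a, Slc38a or Slc43a, with the brightest probeset standing for a gene that has several. This gave 69 genes on 71 probesets, out of 19937 genes and 34760 probesets. Of these, 67 encode carriers or their heavy chains, and Slc6a19os and Slc7a6os are opposite-strand genes that only share the beginning of the name. The expression minimum, a mean log2 value of at least 4 over the 9 arrays, was reached by 40 of the 69 genes (58.0%), compared with 13157 of all 19937 genes (66.0%). Just above it lay Slc7a10 at 4.10 and Slc6a13 at 4.01, and just below it Slc3a1 at 3.99 and Slc36a3 at 3.95.

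All arrays came from HC11 cells, a mammary epithelial line first grown from BALB/c mice in mid-pregnancy, in which Mkl1, a coactivator of the transcription factor SRF, was overexpressed as a fusion with red fluorescent protein. HC11-FL cells carried full length Mkl1-RFP and served as the control, HC11-mutB1 cells carried Mkl1-RFP with alanine substitutions in the B1 site through which it binds SRF, and HC11-ΔSAP cells carried Mkl1-RFP without the SAP domain. Before RNA extraction, all 3 strains were kept for 48 h in RPMI with 0.03% FCS and no EGF, and 3 arrays were hybridised per strain. Each construct was represented by 1 stably transfected strain sorted for red fluorescence, so a difference between constructs cannot be told apart from a difference between strains, and the control is itself an overexpressing strain. The labels number the arrays of a strain from 1 to 3 without saying that they came from separate cultures, so p-values measure only the spread between these samples.

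The deposited values are on a log2 scale, and array medians lay between 4.53 and 4.60. The Mkl1 probeset had a mean of 9.95 ± 0.11 (SD, n = 3) in HC11-FL cells, 9.83 ± 0.07 in HC11-mutB1 cells and 9.47 ± 0.07 in HC11-ΔSAP cells, and measures construct and endogenous Mkl1 together. Its difference from HC11-FL was -0.48 in HC11-ΔSAP cells (limma adjusted p = 0.0018) and -0.12 in HC11-mutB1 cells (adjusted p = 0.31). The part of this lower Mkl1 level in the differences of carrier genes was not tested. Tnc, the tenascin-C gene the strains were made to study, had means of 9.24, 10.34 and 7.62 in the same order. All 12 epithelial markers examined, Krt8, Krt14, Epcam and Cdh1 among them, reached 4 in every strain, yet their levels differed between strains. Compared with HC11-FL, 5 fell and 4 rose in HC11-mutB1 cells while 8 fell and 3 rose in HC11-ΔSAP cells, with median log2 differences of -0.17 and -0.47. Krt5, a basal keratin, differed by 1.15 and -1.90, Krt18, a luminal keratin, by -0.65 and -1.36 and the claudin gene Cldn7 by -1.98 and -0.89. The 3 that rose in HC11-ΔSAP cells were Trp63, with differences of 0.43 and 0.69, Epcam, with 0.54 and 0.42, and Cdh1, with 0.12 and 0.37. Averaged over the 12 markers, log2 values of single arrays ran from 9.02 to 9.03 in HC11-FL cells, from 8.73 to 8.77 in HC11-mutB1 cells and from 8.59 to 8.61 in HC11-ΔSAP cells. Of 18 markers of other cell types, 10 reached 4 in HC11-FL cells, 10 in HC11-mutB1 cells and 9 in HC11-ΔSAP cells, among them Col1a1 and Pdgfra, while Ptprc and Pecam1 did not. Of the 10 with a mean of at least 4 over all arrays, 4 fell and 1 rose in HC11-mutB1 cells while 2 fell and 3 rose in HC11-ΔSAP cells. Dcn, a fibroblast gene, differed by -0.48 and 1.81, Fabp4, an adipocyte gene, by -0.97 and 1.34, Pdgfrb by -0.87 and -0.38, Pdgfra by 0.51 and -0.42 and the macrophage gene Cd68 by -0.34 and 0.45. All these differences of named markers passed an adjusted p of 0.01 (limma), except that of Cdh1 in HC11-mutB1 cells. Those of Col1a1 did not pass. Averaged over the 18 markers, arrays ran from 4.66 to 4.78 in HC11-FL cells, from 4.49 to 4.53 in HC11-mutB1 cells and from 4.81 to 4.86 in HC11-ΔSAP cells. The part of these markers in the differences of carrier genes was not tested. Since RNA of whole cultures was measured, fewer cells of a kind and less RNA per cell cannot be told apart.

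Cells take up amino acids through several families of carriers with overlapping substrates. Some are driven by the sodium gradient (Slc1, Slc6, Slc38), some by protons (Slc15, Slc36), and others exchange one amino acid for another, often as a light chain (Slc7) bound to a heavy chain (Slc3). In the mammary gland they supply the amino acids for milk protein, and in most cells several of them answer to amino acid shortage through the transcription factor ATF4, which binds amino acid response elements in its target promoters.

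The promoters below are shown because they belong to the carrier gene that fell most in both mutant strains (Slc15a2) and to the genes that rose in both and held the core of an amino acid response element (Slc7a11 and Slc1a4). Each runs from 250 bases before to 50 bases after the start in RefSeq (GRCm38.p6), 5′ to 3′ on the strand of the gene. Capitals mark matches to TGATGNAA, searched on both strands. The Slc15a2 promoter lies at chr16:36784913-36785212, that of Slc7a11 at chr3:50443564-50443863 and that of Slc1a4 at chr11:20332664-20332963, all on the minus strand.
Slc15a2: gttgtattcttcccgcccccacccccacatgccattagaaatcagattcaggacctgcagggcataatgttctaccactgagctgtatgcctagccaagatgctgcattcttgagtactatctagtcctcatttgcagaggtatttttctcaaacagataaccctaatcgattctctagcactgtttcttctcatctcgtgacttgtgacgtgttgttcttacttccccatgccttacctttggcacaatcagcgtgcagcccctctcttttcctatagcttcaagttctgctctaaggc
Slc7a11: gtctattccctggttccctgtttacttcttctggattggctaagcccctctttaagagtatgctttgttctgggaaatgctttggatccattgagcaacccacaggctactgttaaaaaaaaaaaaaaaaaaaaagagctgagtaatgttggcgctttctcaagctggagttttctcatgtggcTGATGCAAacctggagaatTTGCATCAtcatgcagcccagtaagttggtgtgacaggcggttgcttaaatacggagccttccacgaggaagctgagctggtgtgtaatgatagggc
Slc1a4: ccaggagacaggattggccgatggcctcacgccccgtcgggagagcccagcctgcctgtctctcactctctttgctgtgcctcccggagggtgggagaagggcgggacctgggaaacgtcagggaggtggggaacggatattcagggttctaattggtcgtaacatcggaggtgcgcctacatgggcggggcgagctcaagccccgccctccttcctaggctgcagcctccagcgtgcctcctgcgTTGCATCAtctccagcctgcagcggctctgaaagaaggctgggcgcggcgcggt

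The Slc7a11 window held 2 matches on opposite strands, which begin 66 and 47 bases before the start. In the Slc1a4 window the 1 match spanned the start, and the Slc15a2 window had none. RefSeq promoters were found for 51 of the 69 genes, 72 promoters in all, and the Slc7a2 promoter was not among them. TGATGNAA occurred in 6 of the 72 (8.33%), belonging to Slc15a5, Slc1a4, Slc6a21, Slc7a11 and Slc7a7, against 3.97% of all 32851 promoters of this length. Of these genes, Slc15a5, Slc6a21 and Slc7a7 lay below the expression minimum, at 3.72, 3.76 and 3.41, with no difference that passed. The matches of Slc7a7 came from overlapping windows. CACGTG, the E-box core, occurred in 9 of the 72 (12.5%) and in 7.15% of all promoters. The CArG box, the element SRF binds, was found in 0 of the 72 and in 1.63% of all promoters. The motifs TGATGNAA and CACGTG cannot overlap over their full length, and a match describes the letters of these windows only.

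Carrier genes were more often higher than lower in the mutants. With the adjusted p at 0.01 or less (limma, Benjamini-Hochberg over all probesets) with no fold minimum, 13 of the 40 genes (32.5%) were higher and 5 (12.5%) lower in HC11-mutB1 cells than in the control, whereas 11.9% of all 20286 probesets above the expression minimum were higher and 8.32% lower. In HC11-ΔSAP cells 12 of the 40 (30.0%) were higher and 4 (10.0%) lower, beside 11.9% higher and 10.1% lower among all probesets. The share of carrier genes that fell was thus close to the background in HC11-ΔSAP cells. Carriers were counted as genes, each by its brightest probeset, whereas the background holds every probeset above the minimum, with or without a gene symbol. The markers above and the gene lists below were also counted as genes. Shares of all genes chosen like the carriers were not computed, so the part of this choice in the excess was not tested. The HC11-FL arrays enter both comparisons, which are therefore not independent.

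With a fold of at least 2 added to these filters, 6 carrier genes were higher and 2 lower in HC11-mutB1 cells, where the background was 1.65% higher and 1.21% lower. In HC11-ΔSAP cells 5 were higher and 1 lower, against 1.49% and 1.51%. Slc1a5 and Slc6a2 lay just under the fold minimum there, and the 1 lower gene became 2 without any 1 of the HC11-FL replicates and 3 without HC11-ΔSAP replicate 3. The median log2 difference of the 40 genes was 0.05 for HC11-mutB1 and 0.04 for HC11-ΔSAP cells, near the medians of all probesets of -0.02 and -0.01. Median absolute differences were 0.24 and 0.19, against 0.17 and 0.16 for all probesets.

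**Figure D1:**
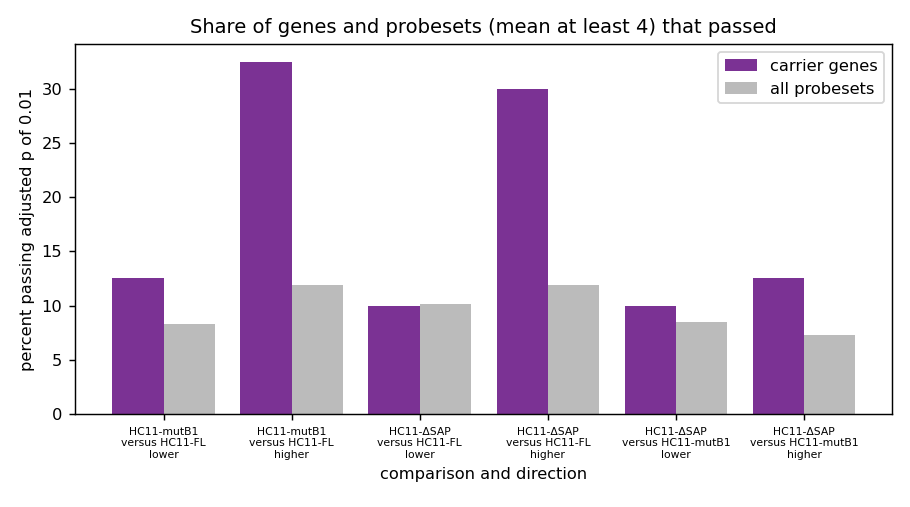
Percent of the 40 carrier genes (purple) and of all 20286 probesets (grey) with a mean log2 value of at least 4 that passed an adjusted p of 0.01, by comparison and direction. The bars for carrier genes higher than in HC11-FL stand at 32.5% and 30.0%, against 11.9% of all probesets in both. Those for lower carrier genes stand at 12.5% and 10.0%. Carriers are counted as genes and the background as probesets.

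The mutants were also compared with each other directly. Between HC11-mutB1 and HC11-ΔSAP cells, 4 carrier genes (10.0%) were lower in the latter and 5 (12.5%) higher, beside 8.45% and 7.25% of all probesets. The 3 filters left 1 lower and 0 higher, against 1.7% and 1.16%. The median log2 difference was 0.01 for the carriers and 0.01 for all probesets.

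Of the 40 genes, 10 were higher in both mutants than in HC11-FL: Slc1a3, Slc1a4, Slc6a8, Slc6a9, Slc7a2, Slc7a6, Slc7a11, Slc36a4, Slc38a1 and Slc38a10. Another 4 were lower in both, namely Slc1a5, Slc6a2, Slc15a2 and Slc38a6. In 6 more, 1 of the comparisons passed, and 20 passed in neither. The share of all probesets with the same joint patterns was not counted, so these numbers do not set the carriers apart from other genes. All 20 genes that passed had a mean of at least 4 in every strain, Slc7a4 in HC11-mutB1 cells being close to that limit. In 38 of the 69 genes some value occurs in more than 1 array, in 26 of them within a strain, and in 6 all 3 arrays of a strain hold the same value, which makes the SD 0 there and the SE possibly too small.

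**Figure D2:**
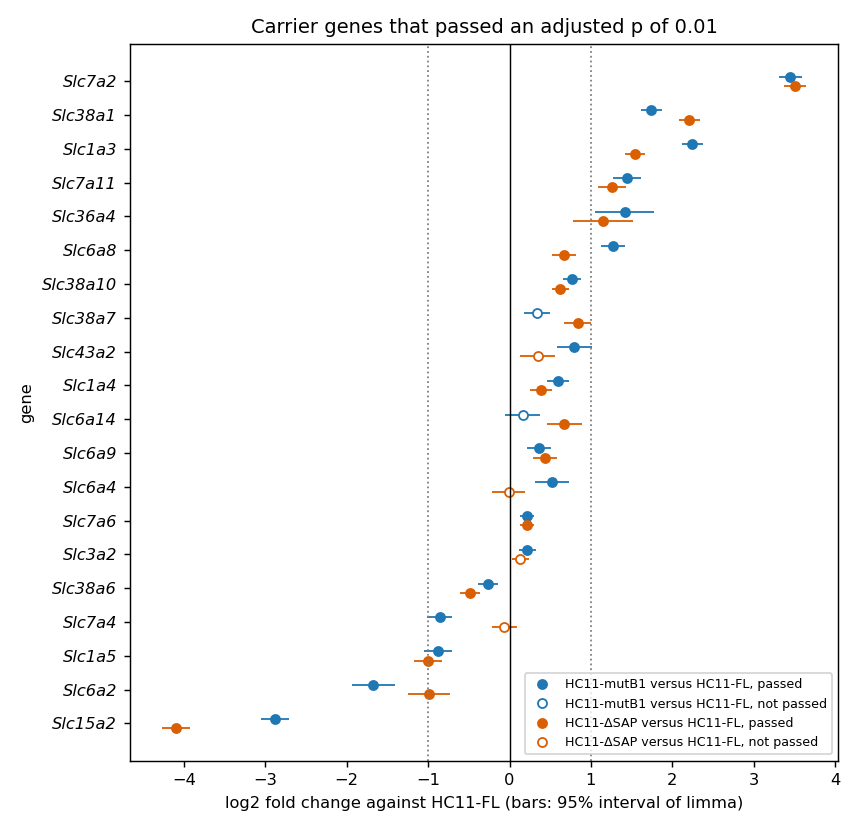
Log2 difference from HC11-FL (horizontal axis) for the 20 carrier genes that passed an adjusted p of 0.01 in HC11-mutB1 (blue) or HC11-ΔSAP cells (orange), with 95% intervals from limma, filled points for differences that passed and dotted lines at a fold of 2. Slc7a2 stands at 3.45 and 3.51 and Slc15a2 at -2.89 and -4.10.

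Among the carriers of cationic amino acids, Slc7a2 showed the largest rise of all carrier genes in both mutants. It encodes CAT2, which brings arginine, lysine and ornithine into the cell. Its log2 values in the HC11-FL arrays were 5.85, 6.0 and 5.89. In HC11-mutB1 cells they were 9.33, 9.35 and 9.42, and in HC11-ΔSAP cells 9.38, 9.38 and 9.51. Every mutant array thus lay more than 3 log2 units above every control array, and the arrays of the mutants overlapped. The difference from HC11-FL was 3.45 in HC11-mutB1 (SE 0.06, 10.9-fold, limma adjusted p = 6.6e-08) and 3.51 in HC11-ΔSAP cells (SE 0.06, 11.4-fold, adjusted p = 4.7e-08). Between the mutants it was 0.06, with a 95% interval of -0.08 to 0.20.

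Slc7a1, which encodes CAT1, the cationic carrier most cells use, passed in neither mutant. Its means were 9.36, 9.25 and 9.42 in control, HC11-mutB1 and HC11-ΔSAP cells, and the differences of -0.11 and 0.06 did not pass (limma adjusted p = 0.37 and 0.67). Slc7a4, a family member without an established substrate, gave 5.04, 4.95 and 4.84 in HC11-FL cells, 4.09, 4.18 and 3.98 in HC11-mutB1 cells and 4.88, 4.87 and 4.89 in HC11-ΔSAP cells. Only the HC11-mutB1 arrays stood apart here, close to the expression minimum. The gene fell in HC11-mutB1 cells, with a log2 difference of -0.86 (SE 0.07, limma adjusted p = 6.2e-05), and the direct difference of HC11-ΔSAP from it was 0.79 (adjusted p = 0.00011), while HC11-ΔSAP differed from HC11-FL by -0.06 (adjusted p = 0.63).

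The peptide carriers held the largest fall. Slc15a2 encodes PEPT2, which takes up dipeptides and tripeptides together with protons and is known from kidney, brain and mammary epithelium. HC11-FL arrays read 9.62, 9.77 and 9.73, HC11-mutB1 arrays 6.82 in all 3, and HC11-ΔSAP arrays 5.48, 5.76 and 5.58. The 3 strains were fully separated, with HC11-ΔSAP lowest. In HC11-mutB1 cells the difference was -2.89 (SE 0.07, 7.39-fold, limma adjusted p = 2.4e-07) and in HC11-ΔSAP cells -4.10 (SE 0.07, 17.2-fold, adjusted p = 5.6e-08). The mutants differed from each other by -1.21 (2.32-fold, adjusted p = 1.9e-05), and Slc15a2 was the 1 carrier gene that passed all 3 filters between them. As its HC11-mutB1 values are identical, the spread in that strain is not known.

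No other peptide carrier passed. Slc15a3 and Slc15a4 encode carriers of histidine and peptides in lysosomes and endosomes of immune and other cells. Slc15a3 lay near the minimum, with means of 4.42, 3.99 and 4.25, and its difference in HC11-mutB1 cells, -0.43, missed the threshold (limma adjusted p = 0.011). Leaving out HC11-mutB1 replicate 2 brought it past the threshold, with a difference of -0.52. Slc15a4 had means of 8.17, 7.90 and 7.96 and differences of -0.27 and -0.21 (adjusted p = 0.042 and 0.1). Slc15a1, the intestinal PEPT1, and Slc15a5 stayed below the expression minimum, at 3.05 and 3.72.

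**Figure D3:**
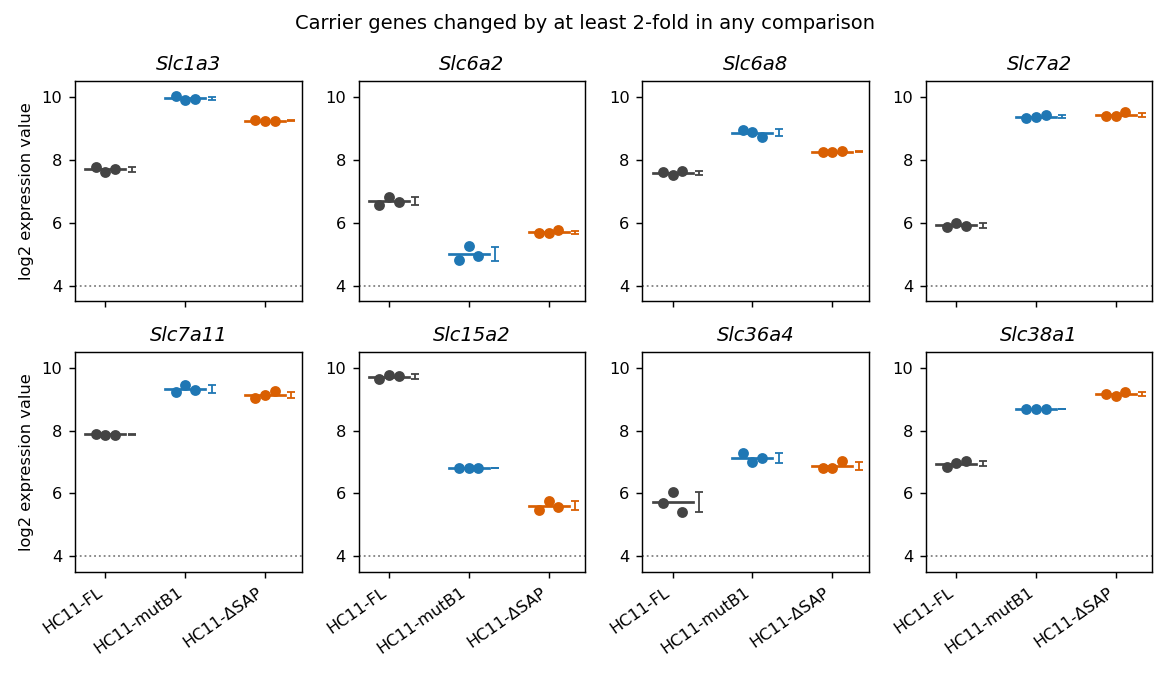
Log2 expression values of the 8 carrier genes that changed by a fold of at least 2 in any comparison: points are arrays, horizontal lines strain means, bars at the side SDs of the 3 arrays, and the dotted line the expression minimum of 4. In each panel the HC11-FL arrays lie apart from all arrays of both mutants, with Slc15a2 and Slc6a2 lower and the other 6 higher in the mutants.

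The carriers of glutamate and neutral amino acids (Slc1) changed in opposite directions. Of the 7 genes 3 were above the minimum, and these passed in both mutants, 2 higher and 1 lower. Among all probesets 11.9% were higher in each mutant, and 8.32% and 10.1% lower. A count over 3 genes says little about the family. Slc1a3, which encodes the glutamate and aspartate carrier GLAST, had values of 7.78, 7.62 and 7.70 in HC11-FL cells, 10.01, 9.90 and 9.92 in HC11-mutB1 cells and 9.27, 9.24 and 9.22 in HC11-ΔSAP cells. The strains did not overlap, and HC11-mutB1 was highest. The differences from HC11-FL were 2.25 (SE 0.05, 4.74-fold, limma adjusted p = 1.6e-07) and 1.54 (SE 0.05, 2.91-fold, adjusted p = 9.6e-07), and HC11-ΔSAP lay below HC11-mutB1 by a log2 difference of -0.70 (adjusted p = 7.1e-05).

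Slc1a5 encodes ASCT2, an exchanger of glutamine and other neutral amino acids, and fell. HC11-FL arrays gave 8.95, 8.70 and 8.86, HC11-mutB1 arrays 8.04, 7.93 and 7.90 and HC11-ΔSAP arrays 7.78, 7.82 and 7.91. The mutants overlapped with each other and not with HC11-FL. Its differences were -0.88 (SE 0.07, limma adjusted p = 0.0001) and -1.0 (SE 0.07, adjusted p = 4.7e-05), the latter a fold just under the minimum of 2. Slc1a4, the related exchanger ASCT1 for alanine, serine, cysteine and threonine, rose from a mean of 8.27 to 8.87 and 8.65, by 0.60 (SE 0.06, adjusted p = 0.00021) and 0.38 (SE 0.06, adjusted p = 0.0022).

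The sodium-coupled neutral amino acid carriers (Slc38) had 8 of 11 genes above the minimum. In HC11-mutB1 cells 2 of the 8 rose and 1 fell (12.5%), and in HC11-ΔSAP cells 3 rose (37.5%) and 1 fell (12.5%), beside 11.9% of all probesets higher in each and 8.32% and 10.1% lower. Slc38a1 encodes SNAT1, a glutamine carrier of the plasma membrane. Its arrays read 6.85, 6.98 and 7.03 in HC11-FL cells, 8.69 in all 3 of HC11-mutB1 cells and 9.17, 9.10 and 9.22 in HC11-ΔSAP cells. The strains were separated, with HC11-ΔSAP highest. The differences were 1.74 (SE 0.06, 3.34-fold, limma adjusted p = 6.1e-07) and 2.21 (SE 0.06, 4.63-fold, adjusted p = 2.5e-07), and 0.47 between the mutants (adjusted p = 0.00074). A second Slc38a1 probeset gave 1.79, 2.32 and 0.53 for the same comparisons, and its HC11-mutB1 SD was 0.06 rather than 0.

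Slc38a10, which carries glutamine and other amino acids, rose in both mutants, from 8.45 ± 0.06 (SD, n = 3) to 9.22 ± 0.05 and 9.07 ± 0.02. Slc38a7, a glutamine carrier of the lysosome, had a mean of 8.40 in HC11-FL cells, 8.73 in HC11-mutB1 cells and 9.23 in HC11-ΔSAP cells. Its rise of 0.84 in HC11-ΔSAP cells passed (SE 0.07, limma adjusted p = 8.7e-05), the difference of 0.34 in HC11-mutB1 cells did not (adjusted p = 0.012), and the direct difference of 0.50 between the mutants did (adjusted p = 0.0019). Without HC11-mutB1 replicate 2 that direct difference missed the threshold, with an adjusted p of 0.01 after rounding.

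Slc38a6 fell slightly, by a log2 difference of -0.27 in HC11-mutB1 (limma adjusted p = 0.0094) and -0.49 in HC11-ΔSAP cells (adjusted p = 0.00037). The first of these missed the threshold in 8 of the 9 fits that left out 1 array, with adjusted p up to 0.038. Slc38a2, the SNAT2 carrier that cells raise when amino acids run short, had means of 11.20, 11.28 and 11.12 and differences of 0.08 and -0.07 that did not pass (adjusted p = 0.29 and 0.36). Slc38a9, the lysosomal arginine sensor upstream of mTORC1, differed by -0.17 and -0.23 (adjusted p = 0.2 and 0.079), and its second probeset by -0.26 and -0.19.

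Heavy and light chains form heterodimers at the plasma membrane, and here 1 light chain stood out. Slc7a11 encodes xCT, which exports glutamate in exchange for cystine and so feeds glutathione synthesis. HC11-FL arrays gave 7.90, 7.87 and 7.85, HC11-mutB1 arrays 9.23, 9.45 and 9.29 and HC11-ΔSAP arrays 9.03, 9.12 and 9.24. All mutant arrays were above all control arrays, and the mutants overlapped. The differences were 1.45 (SE 0.07, 2.73-fold, limma adjusted p = 6e-06) and 1.26 (SE 0.07, 2.39-fold, adjusted p = 1.4e-05). Between the mutants the difference of -0.19 did not pass (adjusted p = 0.15, 95% interval -0.36 to -0.02).

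The partner subunits moved far less. Slc3a2, the heavy chain CD98 that carries xCT and other light chains to the membrane, had means of 11.49, 11.71 and 11.62. Its difference of 0.22 in HC11-mutB1 cells passed narrowly (SE 0.04, limma adjusted p = 0.0093) and missed the threshold in all 9 fits that left out 1 array, with adjusted p from 0.014 to 0.036. In HC11-ΔSAP cells the difference was 0.13 (adjusted p = 0.08). Slc7a5, the LAT1 light chain for leucine and other large neutral amino acids, had means of 10.26, 10.44 and 10.26 and did not pass in either mutant (adjusted p = 0.03 and 0.96). Slc7a6, the light chain that exchanges arginine for neutral amino acids, rose by 0.21 in both (adjusted p = 0.0052 and 0.0047), a call lost in 7 of 9 fits without 1 array in each comparison, with adjusted p up to 0.022 and 0.02. Slc7a6os, which shares only its name with that gene, differed by 0.29 and 0.13 (adjusted p = 0.012 and 0.21).

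**Figure D4:**
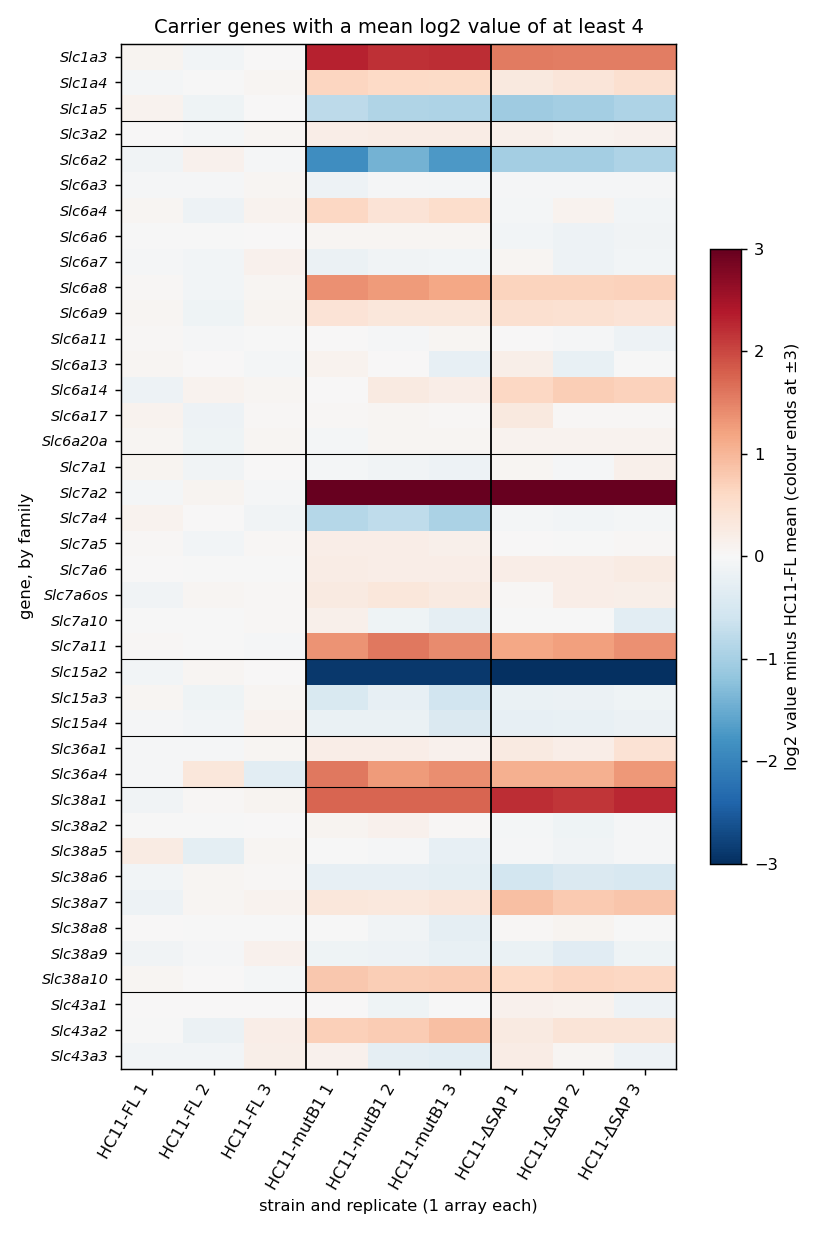
Log2 value of each of the 40 carrier genes with a mean of at least 4, less the HC11-FL mean of that gene, in the 9 arrays (columns, 3 per strain) and by family (rows, divided by lines). Red is above and blue below the HC11-FL mean, and the colour ends at 3, which Slc7a2 and the HC11-ΔSAP values of Slc15a2 exceed, while most other rows, Slc7a1, Slc38a2 and Slc6a6 among them, are pale throughout.

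The proton-coupled family (Slc36) had 2 genes above the minimum, and 1 of them rose in both mutants, beside 11.9% of all probesets higher in each. Slc36a4 encodes PAT4, a carrier of proline and tryptophan. HC11-FL arrays read 5.69, 6.05 and 5.41, HC11-mutB1 arrays 7.29, 6.99 and 7.12 and HC11-ΔSAP arrays 6.79, 6.79 and 7.02. The control arrays spread more than in the other carriers described, yet all lay below both mutants. The differences were 1.41 (SE 0.16, 2.67-fold, limma adjusted p = 0.00044) and 1.15 (SE 0.16, 2.22-fold, adjusted p = 0.0012), and the mutants differed by -0.26 (adjusted p = 0.37, 95% interval -0.63 to 0.10). Slc36a1, the PAT1 carrier found in lysosomes and at the cell surface, had means of 6.05, 6.23 and 6.35 and differences of 0.18 and 0.30 (adjusted p = 0.1 and 0.013).

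Among the Slc6 genes, which carry neurotransmitters, osmolytes, creatine and neutral amino acids, the creatine carrier Slc6a8 had the largest rise in HC11-mutB1 cells and, in HC11-ΔSAP cells, one close to that of Slc6a14. It gave 7.62, 7.50 and 7.63 in HC11-FL cells, 8.96, 8.87 and 8.74 in HC11-mutB1 cells and 8.25, 8.25 and 8.28 in HC11-ΔSAP cells. HC11-ΔSAP lay between the other strains without overlap. The differences were 1.27 (SE 0.06, 2.41-fold, limma adjusted p = 6e-06), 0.67 (SE 0.06, 1.59-fold, adjusted p = 0.00018) and, between the mutants, -0.60 (adjusted p = 0.00045). Slc6a6, the taurine carrier, had means of 11.58, 11.64 and 11.47 and no difference from HC11-FL that passed (adjusted p = 0.39 and 0.088).

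Slc6a2, the norepinephrine carrier of nerve cells, was detected in these epithelial cells and fell. Its values were 6.58, 6.83 and 6.66 in HC11-FL cells, 4.83, 5.26 and 4.95 in HC11-mutB1 cells and 5.67, 5.67 and 5.76 in HC11-ΔSAP cells. HC11-mutB1 was lowest, and no strain overlapped another. The differences were -1.67 (SE 0.11, 3.19-fold, limma adjusted p = 2.8e-05) and -0.99 (SE 0.11, 1.99-fold, just under the minimum, adjusted p = 0.00043). Between the mutants the difference of 0.68 passed (adjusted p = 0.0043), but 6 of 9 fits that left out 1 array did not reach the threshold, with adjusted p up to 0.021.

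The remaining Slc6 changes were under a fold of 2. Slc6a9, the glycine carrier GlyT1, rose from 8.87 to 9.23 and 9.31, by 0.36 (limma adjusted p = 0.0052) and 0.44 (adjusted p = 0.0017), the first lost in 5 of 9 fits without 1 array (adjusted p up to 0.023). Slc6a14, which carries neutral and cationic amino acids into epithelial cells, had values of 7.18, 7.43 and 7.39 in HC11-FL cells, 7.33, 7.61 and 7.54 in HC11-mutB1 cells and 7.94, 8.07 and 8.02 in HC11-ΔSAP cells. The HC11-ΔSAP arrays lay above the rest, which overlapped. It rose by 0.68 in HC11-ΔSAP cells (SE 0.09, adjusted p = 0.0011), with 0.16 in HC11-mutB1 cells (adjusted p = 0.31) and 0.52 between the mutants (adjusted p = 0.0061, lost in 6 of 9 fits without 1 array, up to 0.028). Slc6a4, the serotonin carrier, lay near the minimum at 4.40, 4.92 and 4.39, and its difference of 0.52 in HC11-mutB1 cells (adjusted p = 0.0038) was lost in 4 of 9 such fits (up to 0.017).

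Of the facilitated carriers (Slc43), Slc43a1 and Slc43a2 take up leucine and other large neutral amino acids without an ion gradient. Slc43a2, which encodes LAT4, gave 5.92, 5.78 and 6.13 in HC11-FL cells, 6.66, 6.71 and 6.84 in HC11-mutB1 cells and 6.21, 6.33 and 6.33 in HC11-ΔSAP cells. HC11-mutB1 was highest, and HC11-ΔSAP lay just above HC11-FL. The rise of 0.80 in HC11-mutB1 cells passed (SE 0.09, limma adjusted p = 0.00059). In HC11-ΔSAP cells the difference of 0.35 did not (adjusted p = 0.035), and passed without HC11-FL replicate 3, at 0.44. The mutants differed by -0.45 (adjusted p = 0.014), and by -0.40 to -0.49 with 1 array left out, passing without HC11-FL replicate 2 and without HC11-FL replicate 3. Slc43a1, the related LAT3, and Slc43a3 were near the minimum, with means from 4.18 to 4.37 and no difference that passed.

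Where the mutants differed from each other, the sizes were mostly modest. In HC11-ΔSAP cells Slc1a3, Slc6a4, Slc6a8 and Slc15a2 were lower, and Slc6a2, Slc6a14, Slc7a4, Slc38a1 and Slc38a7 were higher, each against HC11-mutB1. Log2 differences ran from -1.21 for Slc15a2 to 0.79 for Slc7a4. The 5 higher genes became 3 without HC11-FL replicate 3, HC11-mutB1 replicate 1 or 3, or any HC11-ΔSAP replicate. Of these 9 calls, 5 held in all 9 fits that left out 1 array. For comparison, 13 of 18 calls held against HC11-FL in HC11-mutB1 cells and 15 of 16 in HC11-ΔSAP cells.

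Below the expression minimum lay 29 of the 69 genes, and 1 of them, Slc6a15, reached an adjusted p of 0.01 or less. It encodes a carrier of branched-chain amino acids known from neurons, and its means were 3.58, 3.93 and 4.06, close to background. With no expression minimum, a setting chosen after seeing the data, the counts were 14 higher and 5 lower in HC11-mutB1 cells and 13 higher and 4 lower in HC11-ΔSAP cells.

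Genes of the pathways that handle these amino acids inside the cell were examined beside the carriers, in lists of textbook members. Listed genes without a probeset of 1 symbol could not be counted. In the metabolism of glutamine, glutamate and glutathione, 14 listed genes were above the minimum, of which 6 rose (42.9%) and 2 fell (14.3%) in HC11-mutB1 cells and 7 of the 14 rose and 2 fell (14.3%) in HC11-ΔSAP cells. Here and in the lists that follow, the shares of all probesets are 11.9% higher and 8.32% lower in HC11-mutB1 cells, and 11.9% higher and 10.1% lower in HC11-ΔSAP cells. The median log2 differences of the list were 0.18 and 0.22, beside -0.02 and -0.01 for all probesets. Genes of glutathione synthesis rose: Gclc, the catalytic subunit of glutamate-cysteine ligase, by 0.53 and 0.81 (limma adjusted p = 0.00029 and 3.1e-05), and Gss, glutathione synthetase, by 0.70 and 0.85 (adjusted p = 1.9e-05 and 7.2e-06). Oplah, which returns oxoproline to glutamate, rose by 1.02 and 1.51 (adjusted p = 7.5e-06 and 1.1e-06), and Cndp2, a dipeptidase of the cytosol, by 0.61 and 0.54 (adjusted p = 0.00033 and 0.00056).

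Glul, glutamine synthetase, fell furthest. Its mean was 8.02 ± 0.08 (SD, n = 3) in HC11-FL cells, 3.51 ± 0.21 in HC11-mutB1 cells and 6.87 ± 0.08 in HC11-ΔSAP cells. The HC11-mutB1 level is below the expression minimum, so the difference of -4.51 (SE 0.10, limma adjusted p = 1.3e-07) reaches into background, while that of -1.15 in HC11-ΔSAP cells (SE 0.10, adjusted p = 0.00012) does not. The direct difference between the mutants was 3.36 (adjusted p = 7.2e-07). The count of 2 genes lower in HC11-ΔSAP cells became 1 without HC11-FL replicate 1 or 3.

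In the metabolism of arginine, polyamines and proline, 20 of 25 listed genes could be counted, and 18 were above the minimum. Of these 18, 1 rose (5.56%) and 6 fell (33.3%) in HC11-mutB1 cells, while 3 rose (16.7%) and 4 fell (22.2%) in HC11-ΔSAP cells. Their median differences were -0.10 and 0.01. Ass1 was listed but could not be counted, and the paper reports it as reduced in HC11-ΔSAP compared with HC11-FL cells. Arg2, the mitochondrial arginase, which splits arginine into ornithine and urea, rose from 5.95 ± 0.06 to 7.47 ± 0.09 and 8.58 ± 0.11 (SD, n = 3), by 1.53 and 2.64 (SE 0.07, limma adjusted p = 4e-06 and 3.2e-07), with 1.11 between the mutants (adjusted p = 2.5e-05). Arg1, the cytosolic form, did not pass (0.46 and 0.05, adjusted p = 0.011 and 0.82), and did so in HC11-mutB1 cells without HC11-ΔSAP replicate 2, which makes 2 genes higher there. Nos2, which makes nitric oxide from arginine, was lower in HC11-mutB1 by -0.24 (adjusted p = 0.0043) and higher in HC11-ΔSAP cells by 0.70 (adjusted p = 1.5e-05), a direct difference of 0.94 (adjusted p = 3.7e-06). The HC11-mutB1 call for Nos2 was lost in 5 of 9 fits without 1 array.

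Smox, spermine oxidase, rose by 0.80 in HC11-ΔSAP cells (limma adjusted p = 4.2e-05) and differed by 0.10 in HC11-mutB1 cells (adjusted p = 0.31). Ddah1, which clears methylated arginines, fell by 1.11 in HC11-mutB1 cells (adjusted p = 7.8e-06) and fell by 0.31 in HC11-ΔSAP cells (adjusted p = 0.0066), the latter lost in 8 of 9 fits without 1 array (adjusted p up to 0.027). Prodh, proline dehydrogenase, fell by 0.71 and by 0.67 (adjusted p = 0.0033 and 0.0041), calls lost in 3 and 4 of 9 such fits (up to 0.016 and 0.019). The 4 falls counted in HC11-ΔSAP cells, which do not include Ass1, ran from -0.21 for Asl to -0.67 for Prodh, all under a fold of 2. With 1 array left out their number was 0 to 4. It was 0 without HC11-FL replicate 3, HC11-ΔSAP replicate 2 or HC11-ΔSAP replicate 3. It was 1 without HC11-FL replicate 1, HC11-FL replicate 2 or HC11-ΔSAP replicate 1, and 2 without HC11-mutB1 replicate 1 or 2. In HC11-mutB1 cells the number of falls was 3 without HC11-FL replicate 3.

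**Figure D5:**
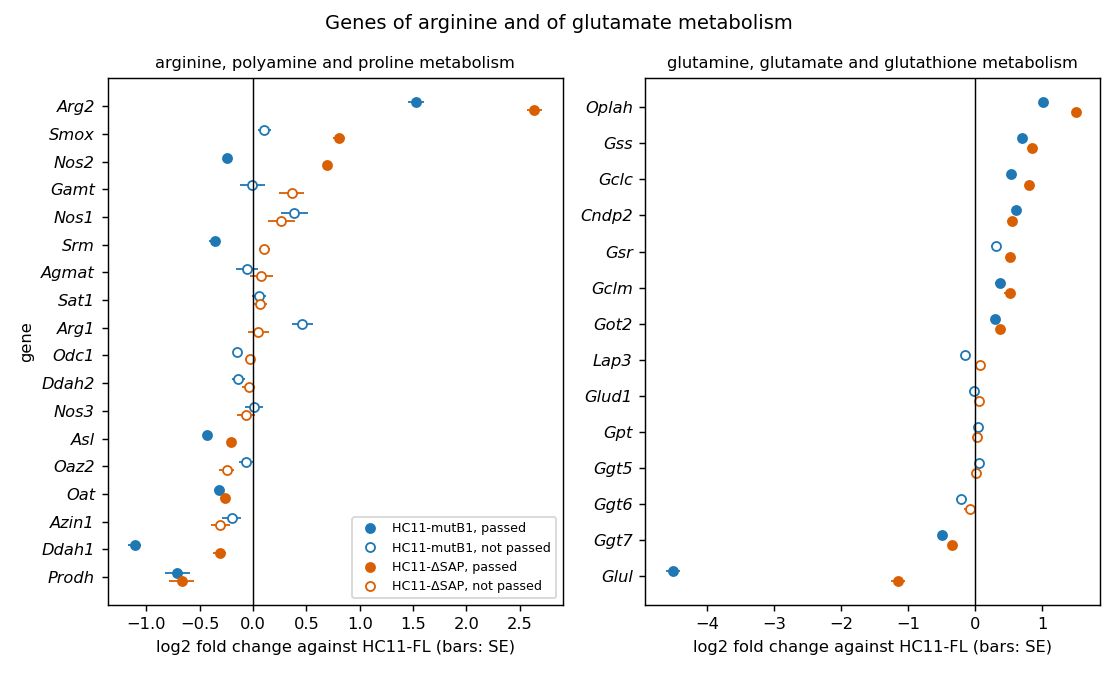
Log2 difference from HC11-FL (horizontal axes) of listed genes with a mean of at least 4 in the metabolism of arginine, polyamines and proline (left) and of glutamine, glutamate and glutathione (right), in HC11-mutB1 (blue) and HC11-ΔSAP cells (orange), with SEs and filled points for differences that passed an adjusted p of 0.01. Arg2 stands at 1.53 and 2.64, Oplah at 1.02 and 1.51, and Glul at -4.51 and -1.15.

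The amino acid response list, genes known to follow ATF4, did not move in 1 direction against HC11-FL. Of 24 genes, all above the minimum, 4 rose and 4 fell in HC11-mutB1 cells (16.7% each), and 3 rose (12.5%) and 6 of the 24 fell in HC11-ΔSAP cells, with medians of -0.05 and -0.04. The shares that rose were near the 11.9% of all probesets. Those that fell, 16.7% and 6 of the 24, lay above the 8.32% and 10.1% of all probesets. In the direct comparison of the mutants, 5 of the 24 (20.8%) were lower in HC11-ΔSAP cells and 0 higher. Among all probesets, 8.45% were lower and 7.25% higher. The median log2 difference of the list was -0.15 there, and 4 or 5 genes were lower with 1 array left out. Atf4 itself had means of 9.66, 9.62 and 9.66. Among the genes that rose were Vldlr, a lipoprotein receptor (1.40 and 0.63, limma adjusted p = 4.7e-07 and 2.7e-05), and Trib3, a pseudokinase (0.53 and 0.73, adjusted p = 0.00077 and 0.00012). Nupr1, a stress-induced chromatin protein, fell (-0.77 and -1.18, adjusted p = 4.5e-06 and 5.7e-07), as did Cth, which makes cysteine from cystathionine (-0.83 and -0.84, adjusted p = 0.00012 and 0.0001). Asns, asparagine synthetase, rose by 0.35 in HC11-mutB1 cells (adjusted p = 0.00051) and differed by 0.06 in HC11-ΔSAP cells (adjusted p = 0.42). With 1 array left out, 2 or 3 genes were lower in HC11-mutB1 cells, with 2 without any HC11-FL replicate and without HC11-mutB1 replicate 2 or 3.

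The list of amino acid sensing by mTORC1 had 26 genes above the minimum. In HC11-mutB1 cells 4 rose (15.4%) and 2 fell (7.69%), and in HC11-ΔSAP cells 4 rose (15.4%) and 1 fell (3.85%), against the shares of all probesets given above. Rptor, the raptor subunit of mTORC1, rose by 0.58 and 0.78 (limma adjusted p = 5.6e-05 and 1.2e-05). Wdr59, a subunit of the GATOR complex, rose by 0.37 and 0.90 (adjusted p = 0.00076 and 6.4e-06), and Fnip1, a partner of folliculin, by 0.50 and 0.46 (adjusted p = 0.00015 and 0.00023). Rragb, a Rag GTPase, fell by 2.16 in HC11-mutB1 (adjusted p = 1.4e-05) and fell by 0.79 in HC11-ΔSAP cells (adjusted p = 0.0031), where the HC11-mutB1 mean of 3.23 is below the expression minimum. The HC11-ΔSAP call was lost without HC11-FL replicate 2 or 3 and without HC11-ΔSAP replicate 1 or 2, which leaves 0 genes lower there. Castor1, an arginine sensor, fell by 0.53 in HC11-mutB1 cells (adjusted p = 0.0034) but not without HC11-FL replicate 1 or 3, which leaves 1 gene lower.

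Other amino acid carriers, mostly of mitochondria and lysosomes, had 15 listed genes above the minimum. In HC11-mutB1 cells 2 rose and 2 fell (13.3% each), and in HC11-ΔSAP cells 3 rose (20.0%) and 1 fell (6.67%), not far from the shares of all probesets. Ctns, which lets cystine out of lysosomes, rose by 0.52 and 0.94 (limma adjusted p = 0.00051 and 2.1e-05), and Slc25a18, a mitochondrial glutamate carrier, by 0.83 and 1.09 (adjusted p = 2.2e-05 and 5.3e-06). Slc25a13, the aspartate and glutamate carrier citrin, fell from 8.95 ± 0.02 to 7.55 ± 0.03 and 8.61 ± 0.01 (SD, n = 3), by a log2 difference of -1.40 and -0.34 (adjusted p = 2.5e-07 and 0.00033), and the mutants differed by 1.06 (adjusted p = 1.3e-06). Slc25a44, a mitochondrial carrier of branched-chain amino acids, fell by 0.31 in HC11-mutB1 (adjusted p = 0.0055) and rose by 0.40 in HC11-ΔSAP cells (adjusted p = 0.0013). Its fall was lost in 7 of 9 fits without 1 array, and the number of genes lower in HC11-mutB1 cells was 1 without HC11-FL replicate 1 or 3, HC11-mutB1 replicate 1 or 2, or HC11-ΔSAP replicate 2. Slc16a10, a carrier of aromatic amino acids, passed in neither comparison with HC11-FL (-0.53 and 0.28, adjusted p = 0.014 and 0.16), the first of which passed without HC11-mutB1 replicate 3 and without HC11-ΔSAP replicate 3. Between the mutants it was higher in HC11-ΔSAP cells by 0.80 (1.74-fold, adjusted p = 0.0021), a call lost without HC11-mutB1 replicate 2 (adjusted p up to 0.011).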

How the data were processed

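HC11 strains were profiled on whole-transcript arrays of Affymetrix (Mouse Gene ST). The authors deposited log2 expression values after RMA normalization with affy (the submitters' processing notes name R 2.10.0), which brings all arrays to a common distribution, so a change shared by most genes would not be seen. Scanner files were not used here. Probesets were named from the array annotation (21640 with 1 symbol, 1321 with several, none of which fits the choice of genes). Levels were not compared between genes.

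Strains were compared by linear models (limma 3.58.1, R 4.3.3) fitted to all 9 arrays, each strain having its own mean (6 residual and 1.93 prior degrees of freedom) and Benjamini-Hochberg adjustment over all 34760 probesets. A gene passed at an adjusted p of 0.01 or less. The 3 filters also asked for a 2-fold change and a mean log2 value of 4 or more. The procedure was tested on simulated arrays with independent normal noise and known changes in the HC11-ΔSAP arrays only. That test does not cover repeated values, differences between strains or changes near the expression minimum. Intervals are 95% intervals of limma, without adjustment. The number of arrays limits the precision.

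The genes and lists were chosen with earlier results of these data known. Named genes were those past the 3 filters, a fixed set of carriers, up to 4 per family and the 4 largest per pathway list in each comparison with HC11-FL. Other genes in the text are those that passed, those with a match to TGATGNAA, or were chosen after their values were seen (Asns, Atf4, Slc6a15, Slc7a10, Slc6a13, Slc3a1, Slc36a3 and Slc15a5). Promoters are from RefSeq. A planned comparison of protein sequences was not run.

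Deviations from strain means correlated at 0.11 to 0.26 between the arrays numbered 1 and at -0.11 to 0.08 between those numbered 2 or 3. Between arrays with different numbers the correlations ran from -0.26 to 0.23. The numbers were not treated as pairs, although the arrays numbered 1 may share something. Alternatives were fits of only the strains compared, an intensity trend in the variance, median centring, adjustment over brighter probesets only, the dimmer probeset of a gene, the number as a block, other thresholds and each array left out.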

Additional observations from a re-analysis of the deposited data

How the results depend on the processing

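No log2 difference that passed changed sign under any alternative run. Of 210 alternative counts of carrier genes, 193 stayed within 1.5 times the value reported. With a fold minimum of 1.5 in place of 2, the genes past the 3 filters were 4 lower in HC11-mutB1 cells (from 2), 3 lower (from 1) and 9 higher (from 5) in HC11-ΔSAP cells, and between the mutants 3 lower (from 1) and 2 higher (from 0) in HC11-ΔSAP. At an adjusted p of 0.05 and any fold, 9 genes (from 4) were lower in HC11-ΔSAP when set against HC11-mutB1 cells. Fitting only those strains left 3 of the 5 higher. With 1 array left out, the count past the 3 filters lower in HC11-ΔSAP cells against the control ran from 1 to 3, and the count higher in HC11-ΔSAP against HC11-mutB1 cells at any fold from 3 to 5.

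The replicate numbers were not treated as pairing the arrays. With the number as a replicate block, 9 genes were higher and 4 lower in HC11-mutB1 cells, 11 higher and 4 lower in HC11-ΔSAP cells, and 5 higher and 3 lower between the mutants, and 7 of the 43 calls among named carriers were lost. These were Slc3a2, Slc6a4, Slc6a9, Slc7a6 and Slc38a6 in HC11-mutB1 cells, Slc7a6 in HC11-ΔSAP cells and Slc6a4 between the mutants. Median centring lost 4 of the 43 calls and fitting only the strains compared lost 10. The pathway counts were less steady, with 76 of 450 alternative counts beyond 1.5 times. The cause was not tested. Levels near the expression minimum, as for Slc6a4 and Slc7a4, are close to background.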
